A study of Mus musculus with 2 samples.

Results

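Emx1, Emx2, Emx2os, Lhx2, Nr2f1, Nr2f2, Otx1, Sp8 and Pax6 were taken as a set because they are named regulators of telencephalic regional identity, together with the antisense RNA of Emx2. They were picked by symbol and not by a rule on their values, though with earlier results of these data known, as were the lists below. All 9 were found among the 43346 mouse genes measured. Of the 9, 8 are protein-coding and Emx2os is an antisense noncoding gene. RNA longer than 200 nucleotides was sequenced from the forebrain of B6NCrl mouse embryos at embryonic day 15.5, with male and female embryos mixed. The only group had 2 libraries, each made from 10 ng of RNA with spike-in transcripts added. Replicate 1 pooled the forebrains of 78 embryos, and replicate 2 those of 62 others. There was no mutant, treated or earlier group, and no genetic change was recorded, so the results are levels, their spread between the pools, and the makeup of transcripts. The pooled forebrain holds telencephalon and diencephalon together, and a level is a sum over all their cells. Expected counts, the estimated reads per gene, came to 38720511 for replicate 1 and 35103430 for replicate 2. With 2 libraries the smallest p of a two-sided exact sign-flip test is 0.5, so no test was made.

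The telencephalon is divided into areas by transcription factors expressed in opposing gradients in its dividing progenitors. Emx2 is highest caudomedially, Pax6 and Sp8 are highest rostrally, and Nr2f1 is highest caudally and laterally, so that each cortical area sees its own mixture. Lhx2 sets cortical against hem identity at the medial edge. Emx1 marks the dorsal, glutamatergic lineage, Nr2f2 is prominent in interneurons from the caudal ganglionic eminence, and Otx1 is expressed in cortical progenitors and later in deep-layer neurons.

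An upstream and an intronic start region of Pax6 and its alternative exon are shown first, because transcript results below refer to them. No RefSeq window was at hand for the main Pax6 start, which held a mean of 57.0% of the gene's TPM. Sequences of start regions are RefSeq windows of 300 bases on GRCm38.p6, of which only the bases outside annotated untranslated regions are given. Capitals mark matches, on either strand, to any of 6 motifs: TATAAA (the TATA box), CCAAT (the CCAAT box), GGGCGG (the GC box), TAATTA (a homeodomain core, which is its own reverse complement), TAATCC (the Otx-type core) and AGGTCA (the nuclear receptor core). The first Pax6 window, chr2:105668646-105668899 on the plus strand, lies before the most upstream start. The second, chr2:105682213-105682512 on the plus strand, lies at the start within an intron.
Pax6 upstream start: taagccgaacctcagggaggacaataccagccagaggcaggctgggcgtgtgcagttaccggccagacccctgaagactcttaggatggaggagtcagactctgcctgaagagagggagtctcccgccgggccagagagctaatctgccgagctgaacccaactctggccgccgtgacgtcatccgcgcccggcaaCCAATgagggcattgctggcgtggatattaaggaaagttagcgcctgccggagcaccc
Pax6 intronic start: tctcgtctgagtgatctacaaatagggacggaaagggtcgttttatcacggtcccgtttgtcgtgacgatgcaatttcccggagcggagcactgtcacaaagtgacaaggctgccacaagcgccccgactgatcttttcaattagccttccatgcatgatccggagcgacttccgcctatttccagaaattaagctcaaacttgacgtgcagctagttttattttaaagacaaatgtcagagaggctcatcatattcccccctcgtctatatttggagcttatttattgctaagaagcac
The upstream window held 1 CCAAT match and 18 CpG, and the intronic window held none of the motifs and 16 CpG. Both were above the median of 7 CpG over all 32851 windows.

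The next pair shows the exon junction that separates the 2 forms of the Pax6 DNA-binding paired domain. Capitals mark exon 5a (chr2:105684751-105684792, plus strand), which has 42 bases and adds 14 codons. The 24 bases on either side belong to the neighbouring exons. The sequences are from the GENCODE M21 transcripts Pax6-225 and Pax6-202.
Pax6-225: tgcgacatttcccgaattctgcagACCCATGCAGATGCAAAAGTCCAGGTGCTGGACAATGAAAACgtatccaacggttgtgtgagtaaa
Pax6-202: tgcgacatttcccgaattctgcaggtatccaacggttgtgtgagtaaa

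Start regions of other members differed in base composition. Windows were found for 7 of the 9 members, 12 in all, and none was at hand for Otx1 or Emx2os. They ranged from 2 CpG (Nr2f2 and the first Sp8 window) to 37 CpG (Emx1) over the full 300 bases. An Lhx2 window with 34 CpG and the Nr2f2 window are shown as a CpG-rich and a CpG-poor example, with the same motifs in capitals. Both lie at upstream starts that held a minor share, a mean of 14.3% of Lhx2 TPM and 21.9% of Nr2f2 TPM. The main starts held 64.9% and 78.1%, and the main Nr2f2 start had no window. The printed parts are chr2:38339031-38339280 on the plus strand and chr7:70366736-70366996 on the minus strand.
Lhx2: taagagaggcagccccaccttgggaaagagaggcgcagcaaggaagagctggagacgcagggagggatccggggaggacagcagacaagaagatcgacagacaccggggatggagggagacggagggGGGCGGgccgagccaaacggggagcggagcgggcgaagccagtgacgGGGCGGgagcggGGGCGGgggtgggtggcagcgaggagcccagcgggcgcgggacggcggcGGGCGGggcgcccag
Nr2f2: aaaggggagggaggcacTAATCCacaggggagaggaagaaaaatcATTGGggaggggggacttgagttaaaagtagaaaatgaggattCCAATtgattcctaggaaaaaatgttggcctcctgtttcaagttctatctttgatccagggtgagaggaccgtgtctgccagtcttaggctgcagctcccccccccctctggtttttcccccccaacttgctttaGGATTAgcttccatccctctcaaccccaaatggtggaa
The Lhx2 window held 4 GGGCGG matches, a motif present in 35.7% of all windows. The Nr2f2 window held 2 CCAAT and 2 TAATCC matches, which 37.4% and 7.06% of all windows hold. The Emx2 window (chr19:59458440-59458739) held 26 CpG, 1 CCAAT, 2 GGGCGG and 1 TAATTA match, the last found in 5.29% of windows. Of its 300 bases, 196 lay in the first exons of both Emx2 and Emx2os. The 2 Nr2f1 windows differed, with 23 CpG and 1 GGGCGG match at chr13:78198824-78199123 and 4 CpG and no match at chr13:78196400-78196699. TATAAA, held by 13.6% of windows, had 2 matches in the first of 3 Sp8 windows, and AGGTCA, held by 16.3%, had 1 match in the second. A match is a match of letters and no measurement of binding.

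All members were expressed. Each of the 9 reached 1 TPM in both libraries, against 34.4% of all mouse genes and 60.6% of protein-coding genes. TPM is a length-corrected relative abundance within 1 library. At 5 TPM 8 of 9 passed, all but Emx2os, against 25.6% of all genes and 48.8% of protein-coding genes. The members covered a wide range, as the plot of levels shows. Fewer expressing cells and less RNA per cell cannot be told apart in such pools.

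**Figure D1:**
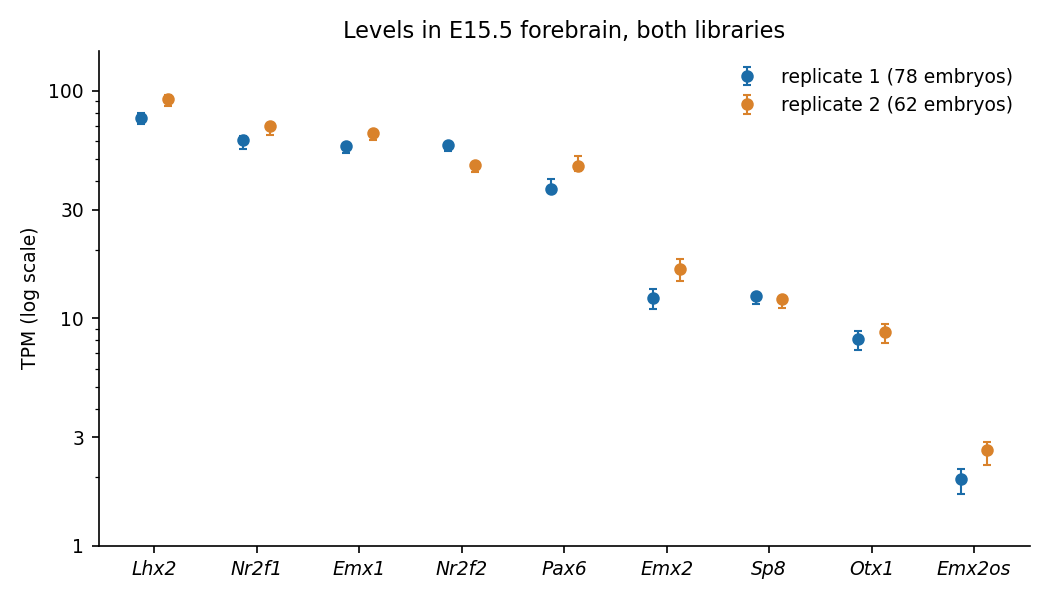
TPM (log scale) of the 9 members in replicate 1 (78 embryos, blue) and replicate 2 (62 embryos, orange), in order of mean level, with vertical bars for the deposited posterior interval, whose level is not stated. Lhx2 stands highest at 75.64 and 91.85 TPM and Emx2os lowest at 1.96 and 2.63 TPM.

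Lhx2, the LIM-homeodomain factor of cortical identity (ENSMUSG00000000247.7, chr2:38339281-38369733, plus strand), was the most abundant member, at 75.64 TPM in replicate 1 and 91.85 TPM in replicate 2. Its mean of 83.7 ± 11.5 TPM (SD, n = 2) was above 90.4% of protein-coding genes. Nr2f1, the orphan nuclear receptor COUP-TFI (ENSMUSG00000069171.9, chr13:78188973-78199757, minus strand), stood at 60.70 and 69.79 TPM, a mean of 65.2 ± 6.43. Both Lhx2 libraries lay above both Nr2f1 libraries.

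Emx1, the homeodomain factor of the dorsal telencephalon (ENSMUSG00000033726.8, chr6:85187438-85204462, plus strand), had 57.20 and 65.19 TPM, a mean of 61.2 ± 5.65. Nr2f2, the paralog COUP-TFII (ENSMUSG00000030551.9, chr7:70351944-70366735, minus strand), had 57.59 and 46.97 TPM, a mean of 52.3 ± 7.51. The libraries of Nr2f1 and Emx1 overlapped, and so did those of Emx1 and Nr2f2, so these neighbours could not be ordered. Pax6, a paired-domain and homeodomain factor of radial glia (ENSMUSG00000027168.17, chr2:105668900-105697364, plus strand), had 37.14 and 46.67 TPM, a mean of 41.9 ± 6.74. Both Pax6 libraries were below both Nr2f2 libraries, though the gap was only from 46.67 to 46.97 TPM.

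Well below Pax6 came Emx2, a homeodomain factor whose loss shrinks caudomedial cortex in mice (ENSMUSG00000043969.4, chr19:59458372-59465357, plus strand), at 12.25 and 16.45 TPM and a mean of 14.3 ± 2.97. Sp8, a zinc-finger factor of the rostral patterning centre and of olfactory bulb interneurons (ENSMUSG00000048562.6, chr12:118846329-118852576, plus strand), had 12.47 and 12.12 TPM, a mean of 12.3 ± 0.247. The Emx2 and Sp8 libraries overlapped. Otx1, an orthodenticle-type homeodomain factor (ENSMUSG00000005917.11, chr11:21994764-22002897, minus strand), had 8.10 and 8.74 TPM, a mean of 8.42 ± 0.453, and lay below Sp8 in both libraries. Emx2os (ENSMUSG00000087095.2, chr19:59425104-59458635, minus strand) was lowest, at 1.96 and 2.63 TPM and a mean of 2.29 ± 0.474, above 43.9% of protein-coding genes.

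Some related genes stood at different levels. Within each library, Emx2 was below Emx1, with log2 ratios of -2.22 and -1.99 (mean -2.10 ± 0.17, SD, n = 2), a 4.30-fold difference. Pax6, of another family, was above Emx2 by 2.93-fold, with a log2 ratio of 1.55 ± 0.07. Lhx2 was 4.52-fold above its close relative Lhx9, a factor of the thalamus and pallium at 16.73 and 20.29 TPM, and the log2 ratio of 2.18 hardly varied between libraries. These gaps exceeded the spread between libraries. Without length correction the log2 ratios were -1.66 for Emx2 over Emx1, 1.83 for Pax6 over Emx2 and 1.54 for Lhx2 over Lhx9.

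Other pairs were close. The log2 ratio of Nr2f1 over Nr2f2 was 0.08 in replicate 1 and 0.57 in replicate 2, a mean of 0.32 ± 0.35, and it turned to -0.41 when reads were not divided by length. Otx1 over its paralog Otx2 gave -0.88 and 0.05, a mean of -0.41 ± 0.66, against 0.32 without length correction. Sp8 over Emx2 gave 0.03 and -0.44, a mean of -0.21 ± 0.33, against 1.01 without length correction. These 3 differences did not exceed the spread between libraries. Sp8 over its paralog Sp9, at 11.16 and 10.15 TPM, gave 0.16 and 0.26, a mean of 0.21 ± 0.07, a small difference in the same direction in both libraries.

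The spread in the Otx pair came from Otx2, which had 14.94 TPM in replicate 1 and 8.42 TPM in replicate 2, while Otx1 hardly differed. Otx2 is itself expressed in choroid plexus, the epithelium that secretes cerebrospinal fluid, and is 1 of its 5 listed markers. All 5 were higher in replicate 1 by 1.2-fold or more, and they summed to 828 and 368 TPM, most of it from Ttr at 761.00 and 331.13 TPM. Of the 19165 genes with 10 or more summed reads, 13.7% were higher in replicate 1 by that fold and 12.2% in replicate 2. Their part in the Otx1 to Otx2 ratio was not tested.

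Most members were slightly higher in replicate 2. Read ratios between the libraries were computed after TMM scaling, with exact binomial intervals at 95% that cover counting error only, and the plot of ratios gives all 9. Of the 9, 2 had more scaled reads in replicate 1 and 7 in replicate 2. By a threshold of 1.2-fold, 2 members were higher in replicate 2 (Emx2 and Emx2os), where 2.27% of the 11266 genes with 500 or more summed reads were, and 1 was higher in replicate 1 (Nr2f2), where 2.25% were. The other 6 were within that fold. Of those 11266 genes, 51.8% were higher in replicate 2, and the 5th and 95th percentiles of their log2 ratio were -0.20 and 0.19. That cut of 500 reads was chosen after seeing the data. Over the 19165 genes with 10 or more summed reads, the percentiles were -0.59 and 0.68, and every member lay between them. Of these 19165 genes, 12.2% were higher in replicate 2 by 1.2-fold and 13.7% in replicate 1.

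**Figure D2:**
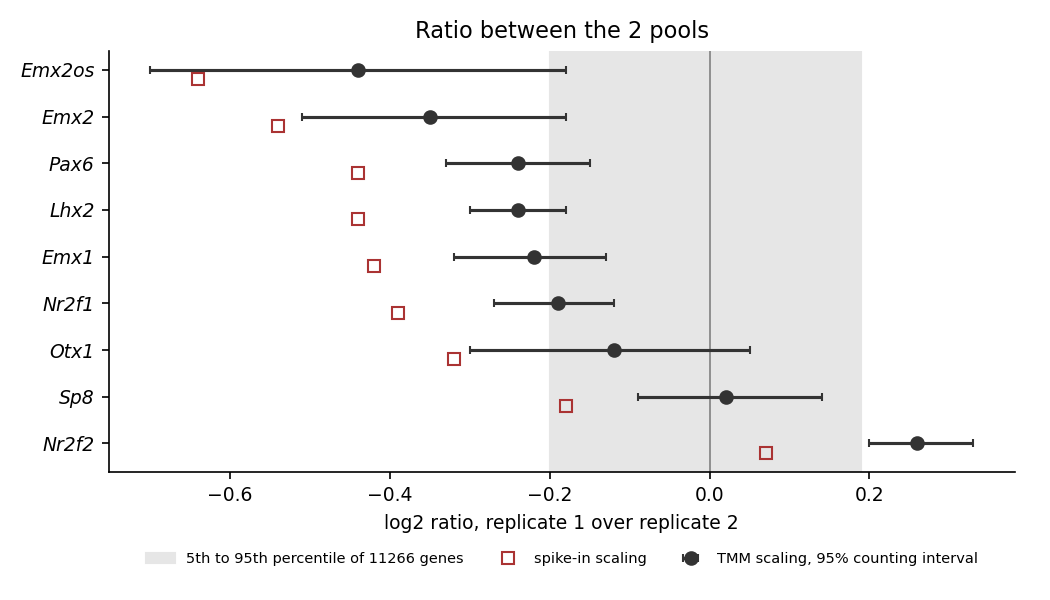
Log2 ratio of reads, replicate 1 over replicate 2, for each member (black, TMM scaling, with the 95% counting interval; red squares, spike-in scaling), over the band from -0.20 to 0.19 (5th to 95th percentile of 11266 genes). Emx2os and Emx2 lie farthest to the left, Nr2f2 alone lies to the right of the band, and spike-in scaling moves every member left, Sp8 across 0.

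Emx2 had 557.68 and 642.93 reads, a log2 ratio of -0.35 (95% interval -0.51 to -0.18), and 1.01% of the deeply counted genes had a lower ratio. Emx2os had 226.32 and 278.07 reads and a ratio of -0.44 (-0.70 to -0.18), with 0.497% of genes lower. Its summed reads only just passed the cut of 500. The intervals of sense and antisense gene overlapped widely, and their TPM ratio to each other was -2.64 in both libraries, so Emx2 was 6.25-fold above its antisense RNA in each. Without length correction the log2 ratio was -1.26.

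Lhx2 and Pax6 both had a log2 ratio of -0.24, with intervals of -0.30 to -0.18 and -0.33 to -0.15. Emx1 followed at -0.22 (-0.32 to -0.13) and Nr2f1 at -0.19 (-0.27 to -0.12). These 4 were 1.14 to 1.18-fold higher in replicate 2, below the 1.2-fold threshold, and their intervals excluded 0.

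Nr2f2 went the other way, with 4781.00 and 3610.00 reads and a ratio of 0.26 (0.20 to 0.33), so that 97.8% of the deeply counted genes had a lower ratio. It sat at the threshold itself. Sp8 at 0.02 (-0.09 to 0.14) and Otx1 at -0.12 (-0.30 to 0.05) had intervals that included 0. Scaled by the spike-ins, the median over all genes moved by -0.20 on the log2 scale and every member moved with it, so that Sp8 crossed 0 to -0.18 and Nr2f2 lay within the 1.2-fold range at 0.07. Under that scaling 7 members were higher in replicate 2 by 1.2-fold and 0 in replicate 1, against 27.3% and 0.453% of the 11266 genes. Relative to that median the members stood where they were.

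Markers of other forebrain tissues also differed between the pools. The 7 thalamic and prethalamic markers summed to 199 TPM in replicate 1 and 241 TPM in replicate 2, and 4 were higher in replicate 2 by 1.2-fold, against the 12.2% of genes given above, among them Tcf7l2 at 78.01 and 107.02 TPM. The choroid plexus markers went the other way, as given above. Of the 8 cortical hem and Cajal-Retzius markers, 5 were higher in replicate 1 by that fold, against 13.7% of genes. Wnt2b, 1 of the 5, had a counting interval that included 0 (-0.33 to 0.92). The list was split, and 2 of the 8 had a log2 ratio below 0. These were Reln at -0.05 (-0.11 to 0.01) and Trp73, named after its value was seen, at -0.21 (-0.40 to -0.03). The 8 summed to 84.5 and 72.8 TPM. The 10 eye markers summed to 15.7 and 10.9 TPM, with Cryab highest at 8.38 and 7.88 TPM, Six6 next at 3.53 and 0.92 TPM, and 1 of 10 at 1 TPM in both libraries. Cryaa, a lens crystallin, was lowest, with 0 and 1 reads. The part of these tissues in the members' ratios was not tested.

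For Nr2f2, which is also expressed in venous endothelium, the 9 endothelial and venous markers summed to 160.3 and 172 TPM. None of the 9 passed 1.2-fold in either direction, and the highest were Cldn5 at 71.97 and 78.19 TPM and Nrp2 at 25.48 and 28.62 TPM, with Flt4 lowest at 1.15 and 1.19 TPM. Nr2f2 and Sp8 are both on a list of 6 markers of interneurons of the caudal ganglionic eminence. All 6 reached 1 TPM in both libraries, led by Calb2 at 65.97 and 70.68 TPM. Without Nr2f2 and Sp8, the other 4 summed to 83.1 and 88.7 TPM, most of it from Calb2. These 4 were split, with 2 log2 ratios above 0 and 2 below. The lowest of the list, Htr3a, had 4.57 and 3.38 TPM, a log2 ratio of 0.41 (0.10 to 0.73).

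Emx2 and Emx2os start head to head, and their first exons overlap by 264 bases on opposite strands. The expected counts of each gene were not whole, but together they came to 784 in replicate 1 and 921 in replicate 2, whole to within 0.01 reads. The deposited posterior SD of either count was 0.48 reads in replicate 1 and 1.2 in replicate 2. By these SDs, the division of reads between the strands was uncertain by about a read. No source used here gives the strand setting.

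**Figure D3:**
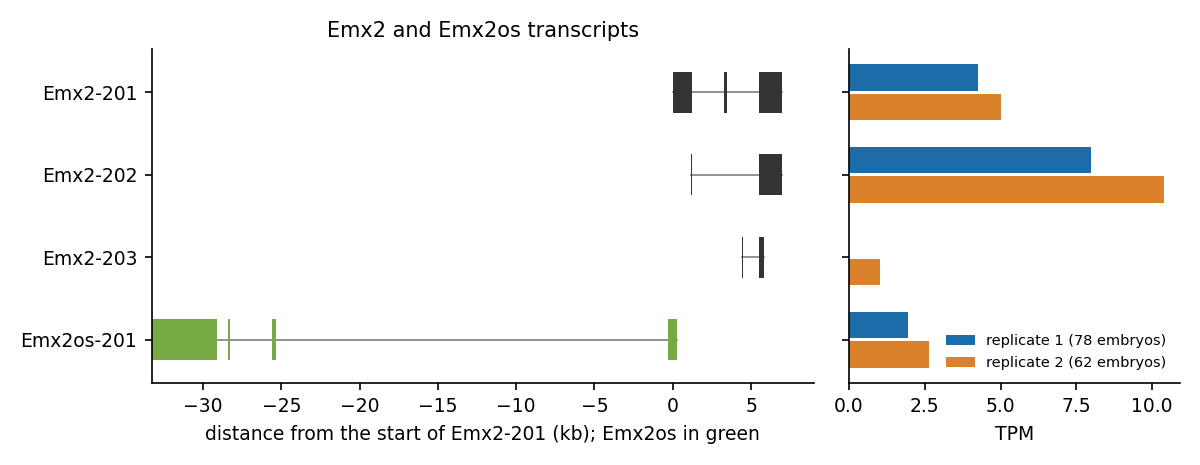
Left, exons of the annotated Emx2 transcripts (black, plus strand) and of Emx2os-201 (green, minus strand) by distance in kb from the start of Emx2-201, with narrow exons widened to be visible. Right, TPM of each in replicate 1 (blue) and replicate 2 (orange), with Emx2-202 highest at 7.99 and 10.39 TPM.

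Of the 3 Emx2 transcripts, the full-length Emx2-201 held 34.8% and 30.6% of the gene's TPM. Emx2-202, which starts inside the first exon of Emx2-201 and skips the middle exon, held 65.2% and 63.1%. The reads were nearly even, at 280.62 and 304.94 for Emx2-201 and 277.06 and 330.84 for Emx2-202. The larger share of Emx2-202 thus went with its length of 1580 bases, against 2916 for Emx2-201. Emx2-203, a short processed transcript, had 0 and 1.03 TPM.

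Other members also had genes on the opposite strand. A830082K12Rik, an antisense gene that shares 123 exon bases with Nr2f1, had 27.72 and 32.41 TPM, a mean of 30.1 ± 3.32. Its reads and those of Nr2f1 summed to 3790 and 3906, again whole numbers, with posterior SDs of 0.81 and 0.40 reads. Its log2 ratio between pools was -0.14 (-0.29 to 0.01), whose interval overlapped that of Nr2f1.

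B130024G19Rik, which shares 643 exon bases with Nr2f2, had 12.54 and 8.34 TPM and a log2 ratio of 0.29 (0.07 to 0.51), on the same side as Nr2f2. In this pair the expected counts of each gene were whole by themselves. B130024G19Rik had 398.00 and 295.00 reads, and Nr2f2 had 4781.00 and 3610.00 with posterior SDs of 0.00. Pax6os1 overlaps the upstream end of Pax6 without shared exon bases and had 0.75 and 0.61 TPM from 19 and 14 reads. Within Lhx2, Gm27197 had 5.40 and 5.51 TPM and Gm13584 had 0.42 and 0.55 TPM. No opposite-strand gene was found at Emx1, Sp8 or Otx1.

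Pax6 had the most complex transcript makeup, with 26 of the 50 annotated member transcripts. Its starts fell in 10 groups set apart by more than 1 kb. The main group (chr2:105675109-105676129, 8 transcripts) held 58.7% and 55.4% of Pax6 TPM, a mean of 57.0% ± 2.28 (SD, n = 2). The upstream group (chr2:105668900-105668935, 4 transcripts) held 13.6% and 19.5%, a mean of 16.6% ± 4.2. The intronic group (chr2:105681712-105682637, 7 transcripts) held 8.75% and 5.89%, a mean of 7.32% ± 2.02. Of its 3.25 and 2.75 TPM, the retained-intron transcript Pax6-221 had 1.29 and 1.35, and the retained-intron Pax6-222 had 0.62 and 0.50. Both are named after their values were seen, and Pax6-221 starts before the printed intronic window. The share of the group is thus not a measure of the intronic start alone.

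The order main, upstream, intronic was the same in both libraries, and the shares did not overlap. In TPM, the main group rested on 21.78 and 25.87 and the upstream group on 5.05 and 9.12. The upstream group had 234.11 and 343.55 expected reads, so its higher share in replicate 2 came with more assigned reads in the smaller library. Most were assigned to Pax6-207, at 222.18 and 314.24, with posterior SDs of 59.14 and 56.69 reads. Its deposited TPM intervals overlapped, at 1.46 to 5.23 and 3.50 to 7.77. The rest of the group's TPM was that of Pax6-214, of 528 bases, named after its value was seen. Pax6-214 had 1.19 and 3.18 TPM from only 11.93 and 29.31 reads. Its intervals also overlapped, at 0.444 to 2.35 and 1.75 to 5.15, so the difference in share between the libraries is uncertain. The sequences of the upstream and intronic starts are those printed first. A share is an estimate from reads that mostly fit several transcripts, and it depends on the annotation of starts.

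**Figure D4:**
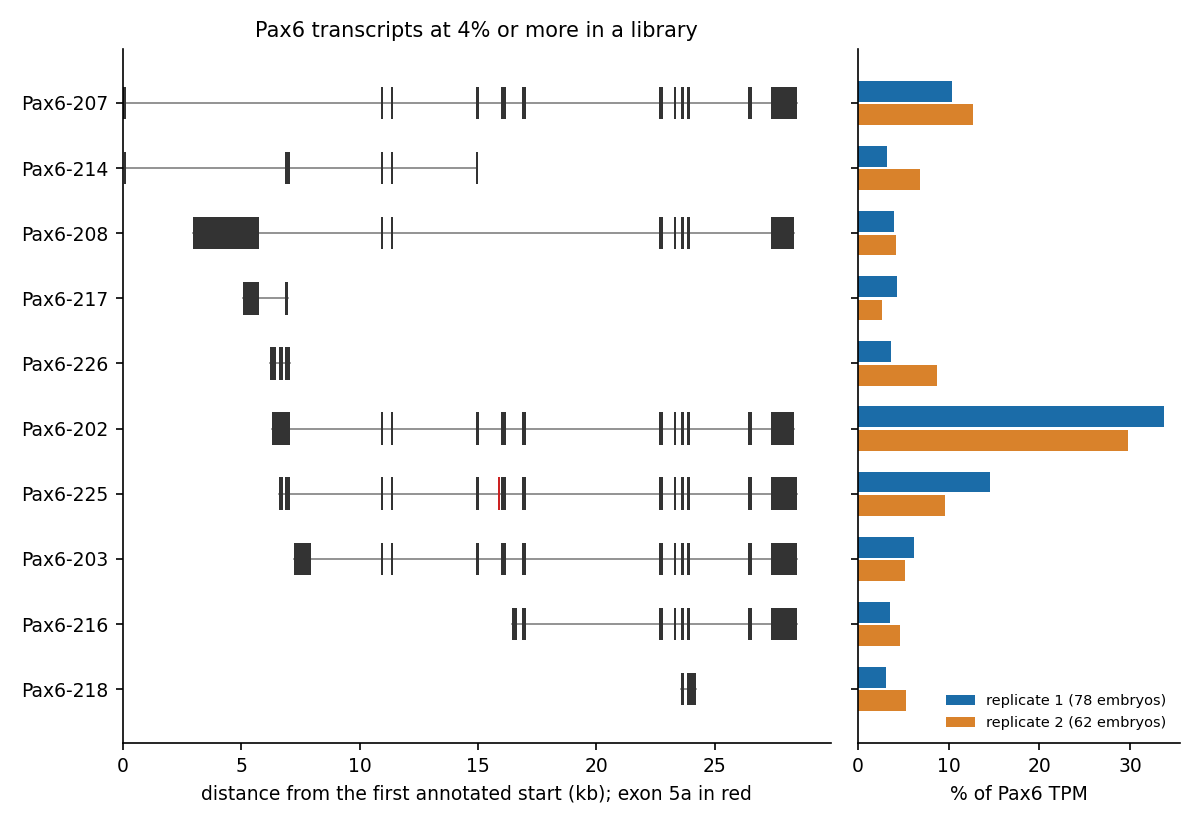
Left, exons of the 10 Pax6 transcripts with 4% or more of the gene's TPM in a library, by distance in kb from the most upstream start, ordered by start, with exon 5a in red and narrow exons widened to be visible. Right, percent of Pax6 TPM in replicate 1 (blue) and replicate 2 (orange), with Pax6-202, from the main start and without exon 5a, highest at 33.8% and 29.8%.

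Among single transcripts, Pax6-202 led with 33.8% and 29.8%. Pax6-225, which holds exon 5a, had 14.6% and 9.55%, and Pax6-207, from the upstream start, had 10.4% and 12.7%. No other Pax6 transcript reached 10%, and 8 had 0 reads in both libraries. Protein-coding transcripts together held 72.8% and 70.5%.

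Exon 5a changes which DNA sites the paired domain binds. Of the 26 transcripts, 16 are spliced across its position, 9 with it and 7 without it. Those with it held 25.8% and 19.6% of the TPM of the 16, a mean of 22.7% ± 4.35. Among the 8 coding transcripts that reach the last exon, the share was 23.1% and 19.8%, a mean of 21.4% ± 2.32. By either count most of the TPM with exon 5a was that of Pax6-225, at 5.41 and 4.46. Its 343.90 and 260.20 reads had posterior SDs of 50.22 and 70.58. Its TPM intervals were 3.20 to 6.34 and 0.932 to 5.45, an uncertainty that the SD of the shares does not cover. The form without exon 5a was the majority in both libraries by either count.

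Nr2f1 had 2 main starts of like weight. The upstream start at position 78199757, used by Nr2f1-201, held 44.5% and 43.9%, a mean of 44.2% ± 0.433. A downstream group of 3 transcripts (chr13:78196373-78197930) held a mean of 50.1% ± 0.205 (SD, n = 2). The downstream group was led by Nr2f1-202, at 27.8% and 24.8%, and Nr2f1-205, at 22.4% and 20.9%. In reads the upstream start was larger, with 1963.79 and 2046.24 against 1086.26 and 1113.63 for the downstream group. Nr2f1-201 has 3207 bases and Nr2f1-202 has 841, and TPM divides by length.

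In Lhx2, the start at position 38350759, that of Lhx2-201, held 67.6% and 62.2%, and the shorter Lhx2-202 and Lhx2-203 from starts upstream held 13.1% and 17.6%, and 11.4% and 14.0%. Nr2f2-201, from the downstream of the 2 Nr2f2 starts, held 77.6% and 78.6%, and Nr2f2-202 the rest. Retained-intron transcripts had reads in 4 members. In Pax6, 4 of them together held 12.1% and 11.7%, and in Lhx2, 2 held 3.93% and 4.43%. Emx1-202 held 27.6% and 23.0% of Emx1, beside 72.4% and 77.0% for the coding Emx1-201. Otx1-203 held 10.7% and 11.2% of Otx1, beside 87.4% and 85.8% for Otx1-201. Sp8 and Emx2os each had 1 annotated transcript in the tables.

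Genes around the members were described from lists, shown in the plot of lists. Of 10 further medial and ventral telencephalic regulators, 8 reached 1 TPM in both libraries. The highest were Six3, a rostral forebrain factor, at 17.99 and 14.87 TPM and Gli3, a mediator of hedgehog signalling, at 11.06 and 13.03 TPM. Hesx1, an anterior neural plate factor, had 0 reads, which allows up to 0.123 and 0.134 TPM at 3 reads. Their median was 4.56 TPM, against 41.9 TPM for the members and 4.76 TPM for all protein-coding genes.

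**Figure D5:**
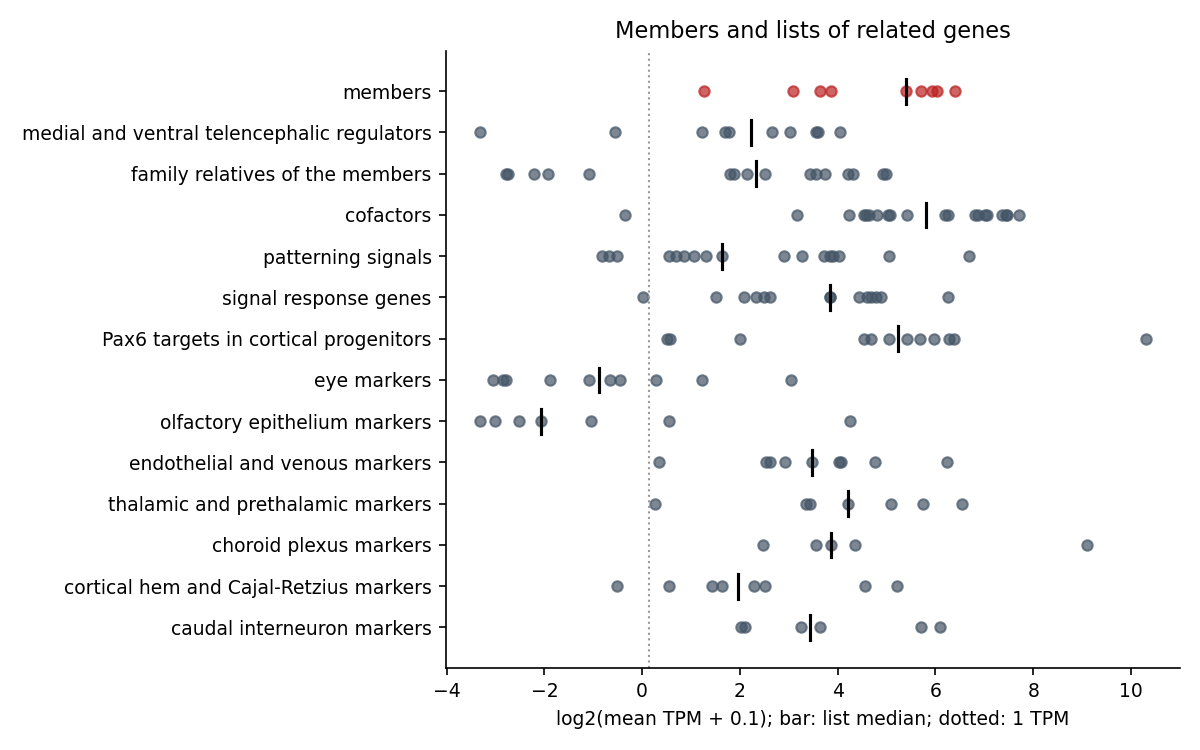
Mean of the 2 libraries as log2(TPM + 0.1) for each member (red) and each gene of 13 lists (grey-blue), with a bar at each list's median and a dotted line at 1 TPM. The members' median of 41.9 TPM lies near those of the cofactors (55.9 TPM) and the Pax6 targets (37.6 TPM), and the eye and olfactory epithelium markers lie lowest, at 0.446 and 0.140 TPM.

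Of 16 family relatives, 11 reached 1 TPM in both libraries, led by the nuclear receptor Nr2e1 at 29.36 and 33.50 TPM and the interneuron factor Lhx6 at 30.53 and 30.02 TPM. The 5 that did not were Pax3, Pax5, Vax2, Pax2 and Pax7, named here after their values were seen, with Pax7 lowest at 0.07 and 0.02 TPM. Pax6 stood far above the 4 other Pax genes of this list in both libraries.

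Genes listed as cofactors, such as LIM-domain adaptors, their partners and corepressors, were nearly all expressed, with 19 of 20 at 1 TPM in both libraries. Not all of them code for direct partners of the members. Ssbp2, a partner of the LIM adaptor Ldb1, had 220.54 and 199.26 TPM, and the corepressor Ncor1 had 176.38 and 174.66 TPM. Zfpm1, a cofactor of GATA factors, was lowest at 0.62 and 0.75 TPM.

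Of 17 patterning signals, 13 reached 1 TPM in both libraries. Wnt7b, a ligand of cortical neurons, had 102.54 and 103.91 TPM, and Sfrp2, a secreted Wnt regulator, had 32.67 and 33.14 TPM. Fgf8, the signal of the rostral patterning centre, was lowest at 0.75 and 0.19 TPM, from 10 and 4 reads. Between the pools, 7 of the 17 were higher in replicate 1 by 1.2-fold and 0 in replicate 2, where 13.7% and 12.2% of genes with 10 or more summed reads were. Of the 7, Fgf8, Fgf18 and Wnt2b had 95% counting intervals that included 0. Fgf18 is named after its value was seen. Of 14 signal response genes, 13 reached 1 TPM, with Id3, a target of BMP signalling, at 81.41 and 72.28 TPM, Etv1 at 29.75 and 29.04 TPM and Gli1, a hedgehog target, lowest at 0.97 and 0.85 TPM.

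All 12 genes listed as Pax6 targets in cortical progenitors reached 1 TPM. Fabp7, a fatty-acid-binding protein of radial glia, had 1345.05 and 1202.21 TPM, and the proneural factor Neurog2 had 74.43 and 91.98 TPM. Hmga2, a chromatin protein of early progenitors, was lowest at 1.19 and 1.47 TPM. Of the 12, 6 were higher in replicate 2 by 1.2-fold and 0 in replicate 1, against 12.2% and 13.7% of genes with 10 or more summed reads. The median log2 ratio of the list was -0.26, and that of Pax6 was -0.24. A ratio above 0 was seen for 2 of the 12, Fabp7 at 0.14 and Cdh4 at 0.18, and Cdh4 is named after its value was seen. All come from the same pair of pools, so this is 1 difference between libraries and not 12.

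The remaining lists were of tissues that a dissection could include. Of the 7 thalamic and prethalamic markers 6 reached 1 TPM in both libraries, so diencephalic RNA was part of each pool. Tcf7l2 was highest of the list, and Olig3 was lowest at 0.83 and 1.36 TPM. All 5 choroid plexus markers reached 1 TPM in both, from Ttr and Folr1 (25.23 and 15.60 TPM) to Clic6, at 5.42 ± 2.94 TPM. Of the 8 hem and Cajal-Retzius markers 6 did, with Reln at 38.04 and 36.12 TPM, Rspo3 at 26.66 and 20.53 TPM and Wnt2b lowest at 0.66 and 0.54 TPM. Of 7 olfactory epithelium markers 2 did, Gnal at 19.02 and 18.76 TPM, which striatal neurons also express, and Gng13 at 1.42 and 1.31 TPM, while Cyp2g1 had 0 reads. Pax6, Lhx2, Emx2 and Sp8 are also expressed in eye or olfactory tissue, where the eye and olfactory lists had medians of 0.446 and 0.140 TPM.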

How the data were processed

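Values are from 1 gene and 1 transcript table per library. Notes deposited with the tables name mm10 as genome and GENCODE M4 as annotation. No source used here gives the aligner, quantifier or strand setting. Material is total RNA per the labels, but their protocols link the manual of a kit that primes from poly(A) tails. Expected counts, as deposited, are estimates of reads and need not be whole. The TPM values deposited by the authors divide them by effective length and scale to a fixed sum. Percent values, as deposited, are shares of a gene's TPM by transcript. Effective length is length minus a constant for longer transcripts, so shares of short transcripts are the least certain.

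Symbols were joined by identifier without version. Gene spans, transcript names and exons are those of GENCODE M21 (same assembly), and 48 of 50 member transcripts had the same length there. For ratios between pools, expected counts were rounded, scaled by TMM in edgeR 4.0.16 (R 4.3.3) over genes with 10 or more summed reads, and 0.5 reads were added. The common coefficient of variation was 6.38%, from an intercept-only fit. Genes with 500 or more summed reads served as background, chosen after seeing the data. Only the ratio between pools and the coefficient of variation were tested on simulated counts. Alternatives used DESeq2 1.42.0 factors, spike-in scaling, posterior mean TPM, counts without length correction, coding transcripts alone, other thresholds and pseudocounts, and each library alone. Replicates are separate pools of embryos per the labels. With 1 group, there was no paired analysis.

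The members and lists were chosen with earlier results of these data known. Named by rule were all members, the other gene of each pair, opposite-strand genes that overlap a member or start within 2 kb, transcripts at 10% or more in a library, and the 2 highest and the lowest gene of each list. A gene that this rule names is not reported here. Limits for 0 reads are 3 reads per library. Figures were drawn with matplotlib 3.10.9 and tables made with pandas 2.3.3, scipy 1.17.1 and numpy 2.4.6 under Python 3.11.15.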

Additional observations from a re-analysis of the deposited data

How the results depend on the processing

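All 9 members reached 1 TPM in either library alone. Without length correction the pair ratios came to log2 values of -1.66 for Emx2 over Emx1, -1.26 for Emx2os over Emx2, -0.41 for Nr2f1 over Nr2f2, 0.32 for Otx1 over Otx2, 0.28 for Sp8 over Sp9, 1.54 for Lhx2 over Lhx9, 1.83 for Pax6 over Emx2 and 1.01 for Sp8 over Emx2. That setting removes the division by length, which differs between the genes of a pair. With protein-coding transcripts alone they were -1.73 for Emx2 over Emx1, 0.30 for Sp8 over Sp9, 2.46 for Lhx2 over Lhx9 and 1.12 for Pax6 over Emx2, and with posterior mean TPM -2.67 for Emx2os over Emx2 and 2.17 for Lhx2 over Lhx9. The cause was not tested. With spike-in scaling, which moved the median over all genes by -0.20, 7 members were higher in replicate 2 by 1.2-fold and 0 in replicate 1, where 27.3% and 0.453% of genes with 500 or more summed reads were, Sp8 changed sign to -0.18, and Otx1 came to -0.32 with an interval that excludes 0. By the ratio of TPM, 4 members were higher in replicate 2. The main Pax6 start held 54.4% from posterior mean TPM. In a single library, Otx1 over Otx2 ranged from -0.88 to 0.05 and Sp8 over Emx2 from -0.44 to 0.03, so the sign of either differed between libraries. With 2 libraries, each lies within the SD by construction, so leaving 1 out is no check of stability. No paired analysis was possible because there is 1 group. Emx2os, with the fewest reads, has the widest interval, and short transcripts rest on few reads.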
